A study of Mus musculus with 16 samples.

Results

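Red blood cell genes of the lung were followed through 9 genes of the erythroid lineage. These are the embryonic globins Hbb-y, Hbb-bh1 and Hba-x, the heme enzyme Alas2, the membrane and membrane skeleton proteins Slc4a1, Ank1 and Epb42, and the transcription factors Gata1 and Klf1. Members were the probe sets, the groups of short oligonucleotides that report 1 transcript each, whose platform annotation gives one of these symbols. Of 12488 probe sets on the array, which name 8251 genes where they carry 1 symbol, 14 met this rule, with 3 for Ank1, 2 each for Hbb-y, Epb42 and Gata1, and 1 each for the other 5 genes.

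The first red cells of the mouse embryo come from the yolk sac and fill with embryonic globins, in which Hba-x supplies the alpha-like chain and Hbb-y and Hbb-bh1 supply beta-like chains. Cells made later in the fetal liver carry adult globins instead, and by late gestation most circulating red cells are of this kind. In developing red cells Gata1 and Klf1 switch on globin, heme and membrane genes, Alas2 carries out the first step of heme synthesis, and the anion exchanger Slc4a1 is tied to the membrane skeleton through Ank1 and Epb42. Young red cells (reticulocytes) still hold such transcripts as they circulate, so blood in the vessels is a known carrier of them in RNA of whole lung.

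Lungs of T1α null mice, which lack the type I cell gene T1α (Pdpn) throughout the body and die of respiratory failure at birth, were compared with wild type lungs, from matings of T1α(+/-) parents. Total RNA was taken from T1α(-/-) lungs at term, collected just after delivery (n = 3, arrays F, G and H), T1α(+/+) lungs at term (n = 3, N, O and P), T1α(-/-) lungs at embryonic day 18.5, E18.5 (n = 5, A to E), and T1α(+/+) lungs at E18.5 (n = 5, I to M). Each array held 1 lung, so the p-values measure the spread between these lungs. Litter and sex, and whether vessels were flushed, are not given in the sources used here.

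Promoters are shown for the gene of these 9 with the largest fall at term, Alas2, and for a pair of embryonic globins whose signals moved together from lung to lung, Hba-x and Hbb-y. Each is the 250 bases before the gene's start, 5′ to 3′ on the strand of the gene, from RefSeq (GRCm38.p6). Capitals mark GATA motifs (AGATAA or AGATAG or TGATAA or TGATAG on either strand), the letters Gata1 binds, and CACCC motifs (on either strand), the core of the letters Klf1 binds.
Alas2 (chrX:150547167-150547416, + strand): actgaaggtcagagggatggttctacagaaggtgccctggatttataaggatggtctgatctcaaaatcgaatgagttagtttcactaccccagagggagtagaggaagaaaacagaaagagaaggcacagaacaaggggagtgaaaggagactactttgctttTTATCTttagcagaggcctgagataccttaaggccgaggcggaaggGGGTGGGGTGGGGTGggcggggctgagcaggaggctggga
Hba-x (chr11:32276350-32276599, + strand): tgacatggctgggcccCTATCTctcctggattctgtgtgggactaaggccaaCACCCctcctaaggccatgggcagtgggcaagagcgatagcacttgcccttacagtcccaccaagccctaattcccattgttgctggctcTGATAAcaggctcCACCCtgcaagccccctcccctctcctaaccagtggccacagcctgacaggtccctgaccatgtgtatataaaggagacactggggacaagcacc
Hbb-y (chr7:103853208-103853457, - strand): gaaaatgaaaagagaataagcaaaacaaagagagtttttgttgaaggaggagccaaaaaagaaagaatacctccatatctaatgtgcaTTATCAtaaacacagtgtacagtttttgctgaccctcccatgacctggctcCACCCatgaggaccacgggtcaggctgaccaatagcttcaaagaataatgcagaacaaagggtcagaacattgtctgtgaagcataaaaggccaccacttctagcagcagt
In the Alas2 promoter 3 CACCC motifs lie next to each other between 40 and 26 bases before the start, on the opposite strand, and 1 GATA motif lies 86 to 81 bases before it. The Hba-x promoter holds 2 motifs of each kind, and the Hbb-y promoter holds 1 of each. No GATA motif overlapped a CACCC motif in these 3 promoters. Of the 9 genes 6 had a promoter in the table (Hbb-y, Hba-x, Alas2, Epb42, Gata1 and Klf1), and 5 of the 6 held a GATA motif, 5 a CACCC motif and 4 both. Over 32851 promoters of the same length, 26.5% held a GATA motif, 52.0% a CACCC motif and 11.8% both.

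Values are MAS 5.0 signals, a background-subtracted brightness of a probe set on a linear scale in arbitrary units, with each array scaled by the authors to a common mean. They compare a probe set between arrays, and not 1 probe set with another. Pdpn signal was 8.6 to 30.0 in term (-/-) lungs and 39.7 to 214.9 in term (+/+) lungs, and 1.4 to 21.2 in E18.5 (-/-) lungs and 60.2 to 135.5 in E18.5 (+/+) lungs, so the groups did not overlap at either age. The E18.5 (+/+) array I stood apart at the low end of the scale, with a mean signal of 35.3 over 15 unspiked bacterial control probe sets, against 6.55 ± 2.13 (SD, n = 15) on the other arrays. At the bright end, all of the 20 brightest probe sets were lower at term in both genotypes, by a median log2 difference of -1.19 in (-/-) and -1.23 in (+/+) lungs, while ranks 101 to 1000 had medians of -0.00301 and -0.0134. The ratio of GAPDH 3′ to 5′ signal, a sign of RNA integrity, ran from 0.827 to 2.63, with the highest values on G (2.63) and O (2.55).

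The embryonic globin Hba-x was lower at term. Its signals were 34.8, 58.2 and 24.5 in term (-/-) lungs, 28.3, 31.4 and 37.0 in term (+/+) lungs, 56.9, 76.0, 52.8, 89.7 and 76.1 in E18.5 (-/-) lungs, and 144.0, 75.4, 92.6, 40.6 and 75.7 in E18.5 (+/+) lungs. Every term (+/+) lung was below every E18.5 (+/+) lung, whereas among (-/-) lungs the term value 58.2 lay inside the E18.5 range. Hba-x fell by 1.0 at term in (+/+) lungs (log2(signal + 16) scale, SE 0.31, limma, adjusted p = 0.0359), and the difference in (-/-) lungs was -0.67 (SE 0.25, adjusted p = 0.059). The (+/+) call was lost under 12 of 19 alternative settings, with adjusted p-values up to 0.190, and its sign held under all 19.

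**Figure D1:**
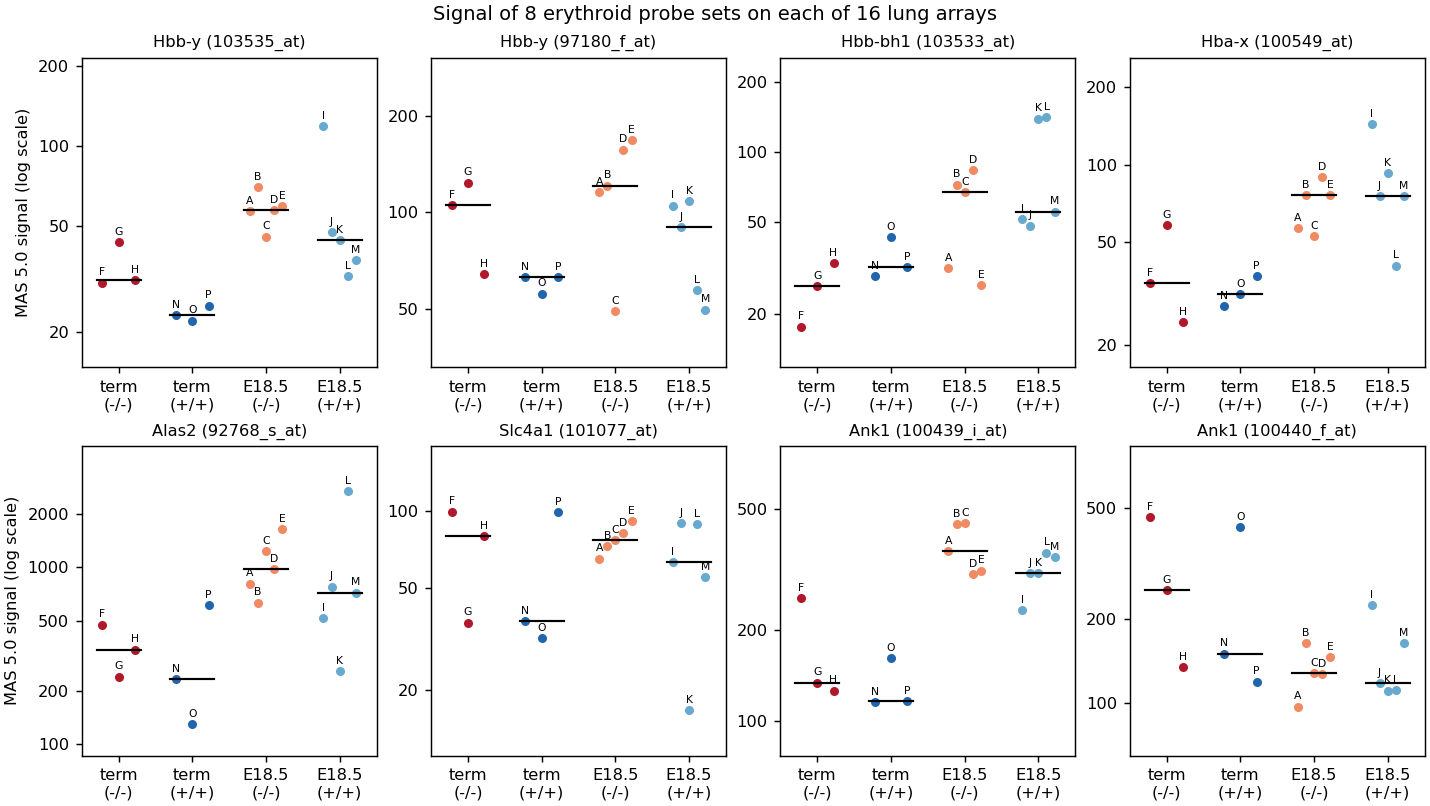
MAS 5.0 signal (log scale) of 8 probe sets on each of the 16 arrays, in columns for term (-/-), term (+/+), E18.5 (-/-) and E18.5 (+/+) lungs. Points are single lungs named by array letter and bars are group medians. All term lungs were below all E18.5 lungs of the same genotype for Ank1 (100439_i_at) in both genotypes, and array L stood highest for Alas2 (2696.8).

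Hbb-y was covered by a pair of probe sets that differed in how far they changed. The first, 103535_at, gave 30.7, 43.7 and 31.5 in term (-/-) lungs, 23.2, 22.1 and 25.2 in term (+/+) lungs, 57.1, 70.5, 45.8, 57.5 and 59.7 in E18.5 (-/-) lungs, and 119.4, 47.7, 44.5, 32.5 and 37.4 in E18.5 (+/+) lungs. Term and E18.5 lungs did not overlap in either genotype, with the smallest exact permutation p that 3 against 5 lungs allow (two-sided, p = 0.0357). In (-/-) lungs the log2 difference was -0.53 (SE 0.21, limma, adjusted p = 0.0776), and in (+/+) lungs, where the probe set did not pass the filter on low signals, it was -0.76. The second, 97180_f_at, whose suffix marks probes shared with a sequence family, gave 105.4, 123.8 and 64.3 in term (-/-) lungs, 63.0, 56.0 and 62.9 in term (+/+) lungs, 115.9, 121.2, 49.5, 156.8 and 167.6 in E18.5 (-/-) lungs, and 105.0, 90.1, 108.5, 57.5 and 49.9 in E18.5 (+/+) lungs. Here the ages overlapped in both genotypes, with log2 differences of -0.23 (SE 0.32, limma, adjusted p = 0.605) in (-/-) and -0.31 (SE 0.28, adjusted p = 0.447) in (+/+) lungs.

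The third embryonic globin, Hbb-bh1, gave signals of 17.7, 26.4 and 33.2 in term (-/-) lungs, 29.3, 42.9 and 32.0 in term (+/+) lungs, 31.7, 72.6, 67.1, 84.1 and 26.8 in E18.5 (-/-) lungs, and 51.6, 48.3, 139.8, 141.6 and 55.5 in E18.5 (+/+) lungs. Among (+/+) lungs the ages did not overlap, and among (-/-) lungs A and E sat within the term range. Neither difference passed the test, at -0.73 in (-/-) (limma, adjusted p = 0.0972) and -0.91 in (+/+) lungs (SE 0.34, adjusted p = 0.0757). All 4 embryonic globin probe sets thus had lower means at term in both genotypes, and 1 of them, Hba-x in (+/+) lungs, was called.

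Alas2 showed the largest fall among the members. Its signals were 475.8, 241.3 and 342.9 in term (-/-) lungs, 233.5, 129.6 and 611.9 in term (+/+) lungs, 810.6, 633.5, 1243.5, 978.8 and 1653.3 in E18.5 (-/-) lungs, and 519.6, 780.2, 259.8, 2696.8 and 721.2 in E18.5 (+/+) lungs. In (-/-) lungs the ages did not overlap, and Alas2 fell by 1.52 (SE 0.31, limma, adjusted p = 0.00442), a mean of 353 ± 118 at term against 1064 ± 399 at E18.5 (SD, n = 3 and 5). The methods' t-test with Benjamini-Hochberg adjustment did not call it (adjusted p = 0.0969). In (+/+) lungs P lay above I and K, and the difference of -1.40 (SE 0.57) missed the threshold (limma, adjusted p = 0.0964). Alas2 lies on the X chromosome, and Xist, which is transcribed from the inactive X of females, gave 6.7 to 10.2 in term (+/+) and 14.3 to 80.0 in E18.5 (+/+) lungs. With the Xist signal as a covariate the (+/+) difference was 0.00042 (limma, adjusted p = 0.9997). Xist did not overlap between ages in (+/+) lungs, so that fit cannot separate the Xist signal from age. The Y-linked gene Eif2s3y did overlap, at 43.9 to 54.2 in term (+/+) and 4.7 to 49.6 in E18.5 (+/+) lungs. An effect of sex was not tested. The effect of the Xist covariate was not particular to Alas2, since calls over all probe sets in (+/+) lungs dropped from 1140 to 183. Alas2 was called in (+/+) lungs under 3 of 20 alternatives. These were array quality weights (-2.02, limma, adjusted p = 0.00864), leaving out K (-1.76, adjusted p = 0.0279) and leaving out P (-1.97, adjusted p = 0.0359).

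Ank1, which links Slc4a1 to the spectrin skeleton, was read by 3 probe sets that did not move alike. With 100439_i_at the signals were 254.5, 133.5 and 125.7 in term (-/-) lungs, 115.1, 160.6 and 116.4 in term (+/+) lungs, 363.9, 446.7, 448.0, 304.8 and 313.2 in E18.5 (-/-) lungs, and 232.3, 307.9, 306.9, 358.8 and 347.8 in E18.5 (+/+) lungs. Term lungs lay below E18.5 lungs without overlap in both genotypes, and the signal fell by 1.11 in (-/-) (SE 0.25, limma, adjusted p = 0.00772) and by 1.15 in (+/+) lungs (SE 0.25, adjusted p = 0.00592). Of 20 alternatives for each genotype, the Xist covariate in (+/+) lungs alone ended the call (limma, adjusted p = 0.144). Ank1 lies on chromosome 8, and Xist and age cannot be separated in these lungs. This Ank1 probe set was the only member called in both genotypes.

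The other Ank1 probe sets had higher means at term. For 100440_f_at the signals were 464.8, 254.5 and 134.9 in term (-/-) lungs, 150.4, 428.4 and 119.4 in term (+/+) lungs, 97.1, 164.3, 127.7, 126.7 and 146.4 in E18.5 (-/-) lungs, and 224.7, 118.1, 110.7, 111.1 and 164.0 in E18.5 (+/+) lungs. The highest values were on F and O, and G at 254.5 also lay above every E18.5 lung. The differences of 0.88 (SE 0.31, limma, adjusted p = 0.0514) in (-/-) and 0.46 (SE 0.36, adjusted p = 0.379) in (+/+) lungs did not pass the test. The (-/-) difference was positive under all 20 alternatives and was called under 6 of them, with adjusted p-values from 0.00893 to 0.274 over the 20 and a difference of 0.46 without F and 1.3 without H. Without O the (+/+) difference was -0.059. F and O were also the term arrays with the most signal of heart markers, such as the atrial myosin Myh6 at 1959.2 on F and 972.2 on O, against 79.9 to 157.0 on the other 4 term arrays, and Ank1 has a form made in striated muscle. On G, however, Myh6 was 111.5 with an Ank1 100440_f_at signal of 254.5, and on the E18.5 array M Myh6 reached 1159.8 with 164.0. With 100439_i_at, F and O were the highest of their term groups as well (254.5 and 160.6). The part of heart tissue in these signals was not tested. The third probe set, 100441_s_at, was low throughout, at 1.4 to 42.7.

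Slc4a1, the band 3 anion exchanger, did not follow Alas2 from one age to the other. Its signals were 99.2, 36.7 and 79.5 in term (-/-) lungs, 37.3, 32.0 and 99.1 in term (+/+) lungs, 65.1, 73.1, 76.7, 82.0 and 91.3 in E18.5 (-/-) lungs, and 62.9, 89.5, 16.7, 88.7 and 55.0 in E18.5 (+/+) lungs. The ages overlapped in both genotypes, with log2 differences of -0.16 (SE 0.25, limma, adjusted p = 0.657) in (-/-) and -0.13 (SE 0.39, adjusted p = 0.847) in (+/+) lungs. Its sign turned under 2 of 19 alternatives in (-/-) and 8 of 19 in (+/+) lungs, so no direction is given.

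Epb42 and Gata1 had low signals, and no probe set of either passed the filter in any comparison. Epb42, protein 4.2 of the red cell membrane, gave 1.9 to 18.6 with 102908_at and 2.6 to 16 with 161151_at outside array I, where 161151_at reached 55.4. With 161151_at the term lungs lay below the E18.5 lungs without overlap in both genotypes, at signals near those of the unspiked controls. Gata1, which megakaryocytes and mast cells also express, gave 4.2 to 28.6 with 102654_at and 6.2 to 56.2 with 161456_f_at. Klf1, which passed the filter in the genotype comparison at term and in none between ages, gave 42.3 to 83.7 in term (-/-) lungs, 25.8 to 54.1 in term (+/+) lungs, 8.4 to 47.6 in E18.5 (-/-) lungs, and 10.9 to 106.3 in E18.5 (+/+) lungs, with 106.3 on I. The ages overlapped for both Gata1 probe sets and for Klf1 in both genotypes.

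**Figure D2:**
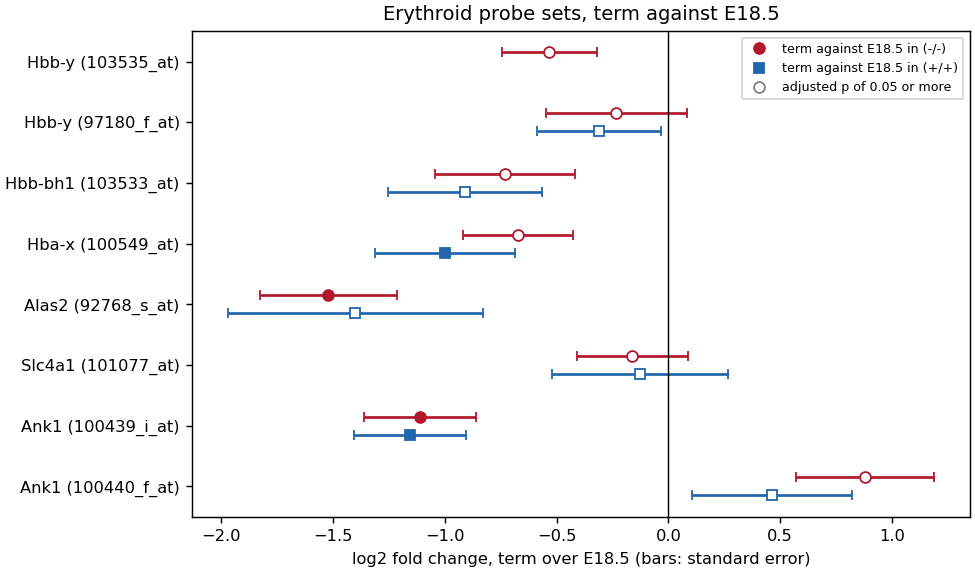
Log2 fold change of term over E18.5 lungs with its standard error from limma, for the member probe sets tested, in (-/-) (circles) and (+/+) lungs (squares). Filled symbols have an adjusted p under 0.05: Alas2 (-1.52) in (-/-), Ank1 100439_i_at in both (-1.11 and -1.15) and Hba-x (-1.0) in (+/+) lungs. Hbb-y 103535_at was not tested in (+/+) lungs.

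Over the whole list, 2 of the 8 probe sets tested between ages in (-/-) lungs were called (limma, adjusted p under 0.05), both lower, while 26.7% of all 6193 probe sets tested were called and 13.0% were called lower. In (+/+) lungs 2 of 7 were called, both lower, beside 18.6% called and 7.99% called lower of 6145. Without the filter, 4 of the 14 members in (-/-) and 5 of 14 in (+/+) lungs lay lower at term without overlap, and none lay higher. Over all 12422 probe sets that are not controls, 13.1% lay lower and 9.2% higher in this way in (-/-) lungs, and 11.4% lower and 7.04% higher in (+/+) lungs. Leaving out array I, the same 5 members lay lower in (+/+) lungs, with a share of 13.0% over all probe sets. In each genotype 10 of the 14 members had a lower mean log2(signal + 16) at term, beside 61.8% and 65.4% of all probe sets. Fewer cells of a type and less RNA per cell cannot be told apart in such signals. The term effect did not differ detectably between genotypes, since 0 of 8 members passed the test of that difference (limma, lowest adjusted p = 0.9997, 0 at an unadjusted p under 0.05), as did 0% of all 6458 probe sets, with 1.47% at an unadjusted p under 0.05.

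At term no member separated (-/-) from (+/+) lungs by the test, and Hbb-y was the only gene whose groups did not overlap. With 103535_at the 3 (-/-) lungs (30.7 to 43.7) were above the 3 (+/+) lungs (22.1 to 25.2), and with 97180_f_at they were above as well (64.3 to 123.8 against 56.0 to 63.0). The mean of 103535_at was 35.3 ± 7.29 in (-/-) and 23.5 ± 1.57 in (+/+) lungs (SD, n = 3 each, exact permutation test, two-sided, p = 0.1, the smallest that 3 against 3 allow). For 97180_f_at, which alone passed the filter, the log2 fold change was 0.53 (SE 0.25, limma, adjusted p = 0.9998). Over all probe sets 2.09% lay higher in (-/-) lungs without overlap, and 2.45% lower. At E18.5 both Hbb-y probe sets overlapped between genotypes, with log2 fold changes of 0.14 (SE 0.27, limma, adjusted p = 0.966) and 0.46 (SE 0.28, adjusted p = 0.875).

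In all, 0 of 6 members tested at term were called between genotypes (limma, adjusted p = 0.9998 for each, 0 at an unadjusted p under 0.05), as were 0% of all probe sets, with 0.68% at an unadjusted p under 0.05. At E18.5 it was 0 of 8 (adjusted p 0.875 to 0.974, 0 at an unadjusted p under 0.05), beside 0.034% of all probe sets, with 5.31% at an unadjusted p under 0.05. None of the 14 members at E18.5 had genotypes that did not overlap, beside 0.386% of all probe sets that lay lower and 0.37% that lay higher in (-/-) lungs. Fold changes of the members tested ran from 0.30 to 0.53 at term and from -0.47 to 0.46 at E18.5 on the log2 scale. Alas2 had a fold change of 0.33 (SE 0.48) at term and 0.45 (SE 0.45) at E18.5, and Slc4a1 had 0.33 (SE 0.39) and 0.36 (SE 0.29). With errors of this size a change of either gene well above its SE could also go uncalled at 3 or 5 lungs a group. Hbb-y 97180_f_at at term, for example, had 0.53 with an SE of 0.25 and was not called. Of 14 exact permutation tests at E18.5, 1 gave p under 0.05, for Epb42 161151_at (two-sided, p = 0.0476), at signals of 7.2 to 12.2 in (-/-) and 8.8 to 55.4 in (+/+) lungs.

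**Figure D3:**
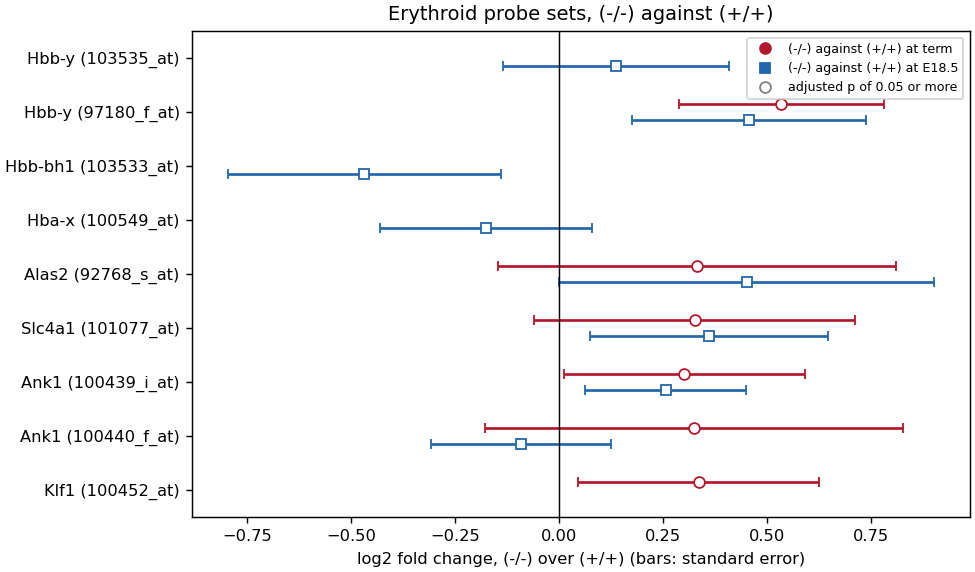
Log2 fold change of (-/-) over (+/+) lungs with its standard error from limma, for the member probe sets tested, at term (circles) and at E18.5 (squares). Every symbol is open, since no member had an adjusted p under 0.05, and the values lie between -0.47 (Hbb-bh1 at E18.5) and 0.53 (Hbb-y 97180_f_at at term).

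The adult globins, the main proteins of circulating red cells, were lower at term in the deposited signals. Hba-a1, adult alpha globin, averaged 8059 ± 2272 in term (-/-) lungs, 7030 ± 620 in term (+/+) lungs, 22512 ± 5808 in E18.5 (-/-) lungs and 21265 ± 7334 in E18.5 (+/+) lungs (SD, n = 3, 3, 5 and 5). It fell by 1.48 in (-/-) (SE 0.26, limma, adjusted p = 0.00226) and by 1.52 in (+/+) lungs (SE 0.37, adjusted p = 0.0105), whereas after quantile normalization its differences were 0.015 (adjusted p = 0.935) and 0.16 (adjusted p = 0.538). Hbb-b2, an adult beta globin, fell by 1.14 (SE 0.21, limma, adjusted p = 0.00271) and 1.10 (SE 0.34, adjusted p = 0.0332), against -0.27 (adjusted p = 0.246) and -0.17 (adjusted p = 0.609) after quantile normalization. Both rank among the 20 brightest probe sets, at 1 and 16, and all 20 were lower at term. After quantile normalization the median of those 20 was -0.00305 in (-/-) and -0.0139 in (+/+) lungs. That method gives the brightest ranks the same values on every array. Differences near 0 there, also those of the adult globins, follow from the method and carry no weight. In the deposited signals the fall of the adult globins cannot be told apart from the shift of the brightest probe sets, to which both belong.

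**Figure D4:**
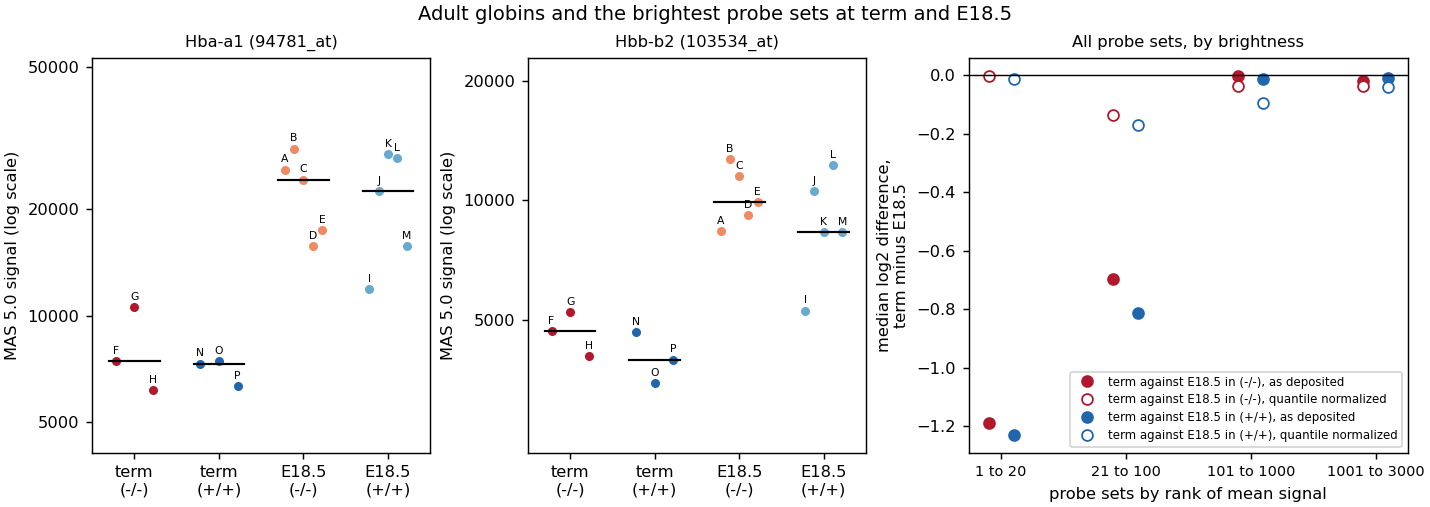
Left and middle, MAS 5.0 signal (log scale) of the adult globins Hba-a1 and Hbb-b2 on each array, by group, with group medians as bars. Right, the median log2 difference of term minus E18.5 over all probe sets in 4 ranges of brightness rank, in (-/-) and (+/+) lungs, as deposited (filled) and after quantile normalization (open), with medians of -1.19 and -1.23 for the 20 brightest as deposited.

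Set against the mean of Hba-a1 and Hbb-b2 on the same array, nearly every probe set was higher at term, members and others alike. The difference of log2 ratios was above 0 for 13 of the 14 members in each genotype, beside 99.2% of all 12420 probe sets outside this pair in (-/-) and 98.8% in (+/+) lungs. In (-/-) lungs 8 of the 14 lay higher at term without overlap (exact permutation test, two-sided, p = 0.0357 each), beside 73.5% of all. In (+/+) lungs none did, beside 38.1%, and without array I 10 did, beside 86.0%. After quantile normalization 2 members lay higher in (-/-) lungs, beside 14.2% of all, and 2 lay lower, beside 4.62%. In (+/+) lungs 0 then lay higher, beside 8.78%, and 3 lower, beside 5.97%. The member with a ratio below 0 as deposited was Alas2, at -0.21 in (-/-) and -0.089 in (+/+) lungs, where the groups overlapped. Nearly all probe sets moved this way against the adult globins, so no direction of a member is drawn from this ratio. Between genotypes at E18.5 no member passed the exact test. At term 3 against 3 lungs cannot give p under 0.1. Hbb-y 97180_f_at lay higher there in (-/-) lungs without overlap, by a log2 difference of 0.35 (exact permutation test, two-sided, p = 0.1). As deposited, 0.201% of all lay higher in this way, and 15.1% had a higher mean. After quantile normalization these shares were 1.24% and 43.2%, so the share depends on the scaling. Set instead against Slc4a1 and Alas2, the 4 embryonic globin probe sets and the 2 adult globins overlapped between ages and between genotypes throughout (exact permutation p from 0.214 to 1), with differences from -0.87 to 0.61 on the log2 scale. These ratios spread widely within groups (SD from 0.40 to 1.32), and Slc4a1 and Alas2 did not move alike between ages. The overlap therefore does not show that the globins kept pace with these genes.

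From lung to lung the members did not vary as 1 group, but they held 2 pairs that moved together. Over the 16 arrays, as deviations from the group means, Slc4a1 and Alas2 had a Pearson's r of 0.82, and 0.74 to 0.86 when any 1 array was left out. Both genes were highest on F and lowest on G among term (-/-) lungs, and both were highest on P and lowest on O among term (+/+) lungs. Both were also highest on E in E18.5 (-/-) lungs and lowest on K in E18.5 (+/+) lungs. At the other end they differed. The lowest E18.5 (-/-) lung was B for Alas2 and A for Slc4a1, and the highest E18.5 (+/+) lung was L for Alas2 and J for Slc4a1. Hba-x had an r of 0.81 with Hbb-y 103535_at and 0.68 with 97180_f_at, and 0.76 and 0.69 without array I. The third embryonic globin, Hbb-bh1, did not go with them, with r of -0.25 for Hba-x and -0.34 and -0.20 for the Hbb-y probe sets. The embryonic globins did not follow Alas2, with r of -0.50 for Hba-x, -0.36 and -0.28 for Hbb-y, and -0.071 for Hbb-bh1. Of 28 pairs among the 8 members on enough signal, 17 had an r below 0, and the pairs above are named for their high r.

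Bpgm, the red cell enzyme that makes 2,3-bisphosphoglycerate, followed the Slc4a1 and Alas2 pair most closely among the red cell genes listed (r = 0.92 with their mean). Its signals were 151.9, 52.5 and 133.5 in term (-/-) lungs, 93.7, 44.9 and 234.1 in term (+/+) lungs, 101.7, 129.1, 147.8, 246.3 and 261.9 in E18.5 (-/-) lungs, and 116.6, 199.2, 20.1, 227.7 and 178.1 in E18.5 (+/+) lungs. The low lungs were again G, O and K. Mgst3 (0.77), the peroxidase Prdx2 (0.77), the water channel Aqp1 (0.77) and the heme enzyme Urod (0.75) came next, and the adult globins did not follow (-0.23 for Hba-a1 and 0.31 for Hbb-b2). Other genes of the same lists lay near 0, such as Uros (-0.0063), or went the other way. The lowest were Lyl1 (-0.67), Zfpm1 (-0.62), Lmo2 (-0.45) and Cpox (-0.35), so the red cell genes did not follow the pair as a class. The range is wide over all 6456 probe sets, from -0.65 to 0.74 for the middle 95%, so many other genes lie along the same axis. The GAPDH 3′ to 5′ ratio moved with it, with r of -0.69 for Slc4a1, -0.46 for Alas2 and -0.65 for Bpgm, and after that ratio was taken out the r of Slc4a1 with Alas2 was 0.78. All these values come from the same 16 arrays, which differed in RNA quality and in the signal of their brightest probe sets, and this relation was looked for after the values were seen.

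**Figure D5:**
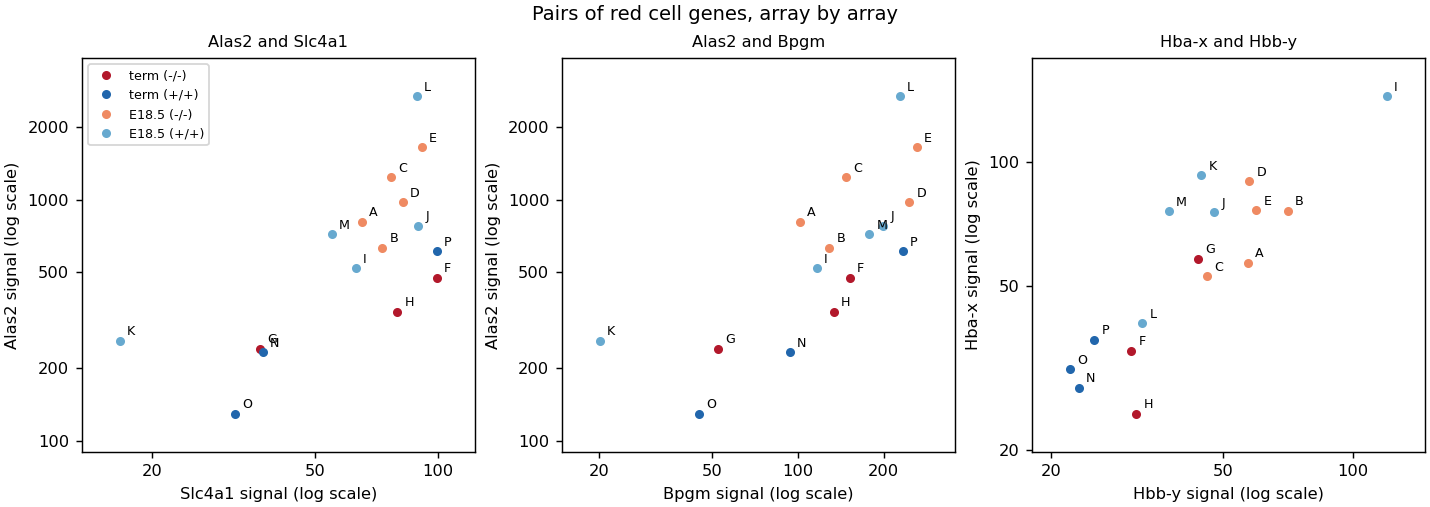
MAS 5.0 signals (both axes log scale) of Alas2 against Slc4a1, Alas2 against Bpgm and Hba-x against Hbb-y (103535_at), with each point a lung named by array letter and colored by group. K, G and O lie at the low end of the first 2 plots, and I lies at the high end of the third (119.4 for Hbb-y and 144.0 for Hba-x).

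Against the mean of the 8 members, the probe sets most alike over the 16 arrays were Sin3a (r = 0.80), Mlec, Desi1, Adipor1, Ganab, Cdr2, Bcl10 and Gstm2 (0.71), and the least alike were Csnk1d (-0.79), Prkcz, Krt7 and Cx3cl1 (-0.77). The middle 95% of 6450 probe sets ran from -0.51 to 0.53. Each member's own r with the mean of the members of other genes was -0.39 to 0.27, so that mean stands for no shared pattern, and between 2 and 7 of the 8 names remained when 1 array was left out.

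Other red cell genes were each read by their brightest probe set. Of these, the 2 adult globins and the heme enzyme Urod were called in both genotypes. No other gene of the 5 lists was called in any comparison on this reading. After quantile normalization Urod alone of these 3 was called, and with no filter none of the 3 was called in (+/+) lungs (limma, adjusted p from 0.0613 to 0.141). With all probe sets of each gene read, 5 were called over time in (-/-) lungs. Urod, which acts midway in heme synthesis, averaged 58.5 ± 17.5 in term (-/-) lungs, 58.7 ± 57.2 in term (+/+) lungs, 134 ± 31.9 in E18.5 (-/-) lungs and 143 ± 44.0 in E18.5 (+/+) lungs (SD). It fell by 1.0 in (-/-) (SE 0.23, limma, adjusted p = 0.00921) and by 1.29 in (+/+) lungs (SE 0.39, adjusted p = 0.0307). Of the other 5 heme synthesis genes tested, Uros gave -0.31 (limma, adjusted p = 0.217) in (-/-) and -0.73 (adjusted p = 0.111) in (+/+) lungs. Alas1, the form of the first enzyme used outside red cells, gave -0.54 (limma, adjusted p = 0.111) in (-/-) and -0.11 (adjusted p = 0.809) in (+/+) lungs, and Alad gave -0.49 (adjusted p = 0.206) and -0.71 (adjusted p = 0.136). Cpox gave 0.24 (limma, adjusted p = 0.424) in (-/-) and -0.21 (adjusted p = 0.579) in (+/+) lungs, and Ppox gave 0.035 (adjusted p = 0.916) and -0.35 (adjusted p = 0.472). Thus 4 of the 6 tested had negative differences in (-/-) and 6 of 6 in (+/+) lungs. The median of the 6 tested was -0.40 in (-/-) and -0.53 in (+/+) lungs, beside -0.063 and -0.044 over all probe sets tested.

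In the red cell membrane list 5 of 16 genes were measured, 4 and 2 passed the filter, and none was called. Dmtn, the actin-bundling protein dematin, gave -0.47 (limma, adjusted p = 0.149) in (-/-) and -0.098 (adjusted p = 0.893) in (+/+) lungs. Rhd, of the Rh blood group complex, and Cd59a, an inhibitor of complement, were tested in (-/-) lungs only, at -0.45 (adjusted p = 0.2) and 0.20 (adjusted p = 0.576). The water channel Aqp1 gave -0.33 (limma, adjusted p = 0.599) in (-/-) and -0.37 (adjusted p = 0.628) in (+/+) lungs. Among erythroid transcription factors 11 of 12 were measured and 8 tested, with medians of -0.0083 and 0.12 and none called. Klf3, a repressor of the Klf1 family, gave -0.49 (limma, adjusted p = 0.0541) in (-/-) and -0.53 (adjusted p = 0.142) in (+/+) lungs. The next by p had positive differences, with 0.51 (adjusted p = 0.124) and 0.48 (adjusted p = 0.165) for Myb, a factor of blood progenitors. Nfe2, which acts on globin genes, gave 0.63 (limma, adjusted p = 0.134) and 0.17 (adjusted p = 0.767), and Lyl1, a relative of Tal1, gave 0.38 (adjusted p = 0.146) and 0.20 (adjusted p = 0.658). For other red cell genes 10 of 17 were measured and 7 tested, with medians of -0.54 in (-/-) and -0.21 in (+/+) lungs. Prdx2 gave -0.61 (limma, adjusted p = 0.0621) and -0.49 (adjusted p = 0.267), and Car2, carbonic anhydrase II, gave -0.61 (adjusted p = 0.0993) and -0.66 (adjusted p = 0.19). The transferrin receptor Tfrc, which takes up iron, gave -0.54 (limma, adjusted p = 0.172) and 0.12 (adjusted p = 0.801), and Bpgm gave -0.61 (adjusted p = 0.198) and -0.21 (adjusted p = 0.814). Neither genotype comparison called any gene of these lists. At E18.5 Alas1 (0.45, limma, unadjusted p = 0.0461, adjusted p = 0.858) and Tfrc (0.55, unadjusted p = 0.0440, adjusted p = 0.858) were higher in (-/-) lungs at an unadjusted p under 0.05. No gene of these lists reached that at term. Over all probe sets the shares were 5.31% at E18.5 and 0.68% at term.

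Markers of other tissues that carry erythroid cells or share member genes were looked at on the same arrays. All 9 liver markers were measured, since the fetal liver makes red cells, and their summed signal was 94.4 to 106.9 in term (-/-) lungs, 95.0 to 165.8 in term (+/+) lungs, 161.7 to 337.7 in E18.5 (-/-) lungs and 110.3 to 367.5 in E18.5 (+/+) lungs. The highest single value was 136.9 for albumin (Alb) on E, and Afp stayed at or below 48.7. Alb alone of the 9 passed the filter in any comparison, and 4 of them were under the filter's signal level on every array. These sums thus rest largely on low signals. Of 8 megakaryocyte and platelet markers 4 were measured, none passed the filter, and the sums ran from 51.0 to 59.8, 32.2 to 74, 50.6 to 79.8 and 28.3 to 229.2 in the 4 groups in the same order. The mast cell list, of which all 7 were measured, summed to 276.2 to 311.6, 242.0 to 388.8, 206.4 to 311.0 and 159.4 to 430.8. The brightest, the tryptase Tpsb2, rose at term in (-/-) lungs by 0.91 (limma, adjusted p = 0.0158) and in (+/+) lungs by 1.58 (adjusted p = 0.00418). The list did not move as 1, since Kit gave -0.18 (limma, adjusted p = 0.622) and -0.20 (adjusted p = 0.635). Cma1, tested in (-/-) lungs only, gave 0.41 (limma, adjusted p = 0.174). Cpa3, Mcpt4, Fcer1a and Ms4a2, which did not pass the filter, had lower mean signals at term in both genotypes. The part of these cells in the members' signals was not tested.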

How the data were processed

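Total RNA of 16 whole lungs was hybridized to Affymetrix U74Av2 arrays, 1 lung per array, and replicates are named by array letter. The deposited values are intensity values, MAS 5.0 signals that the authors computed in Microarray Suite 5.0 and scaled per array to a common mean. No further scaling was applied, so any array-wide shift stays in the values. Genotypes were compared at each age and ages within each genotype in limma 3.58.1 (R 4.3.3, lmFit and eBayes with an intensity trend) on log2(signal + 16), and 1 fit of all arrays tested the difference of the genotype effects. A fold change on this scale understates that of dim probe sets. Tested probe sets had a group median above the signal exceeded by the mean share of probe sets called present, and p-values were adjusted (Benjamini-Hochberg) over all of them. The limma step was tested on simulated data. Exact permutation tests were two-sided (scipy 1.17.1), and their p-values are not adjusted. The members and gene lists were chosen with earlier results of these data known. Each listed gene was read by 1 probe set, that of the highest mean log2 signal. Named were all members, up to 4 genes per list with the lowest limma p over the 2 age comparisons, and the other heme synthesis genes tested. Also named were the 8 probe sets most and 4 least alike the members, and markers a result turned on. Bpgm and the genes most alike the Slc4a1 and Alas2 pair were chosen after their values were seen. Alternatives were quantile normalization, median centering, pseudocounts of 1 and 64, omitting the filter or raising it to the signal passed by 25% of probe sets, no trend, 1 fit of all arrays, the methods' t-test, the GAPDH ratio or Xist signal as covariate, array quality weights, and each array left out. The number of arrays limits precision. Probe set symbols came from the platform annotation, which can be old. All 16 columns of values were used.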

Additional observations from a re-analysis of the deposited data

Results flagged for a closer look

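In 3 of 28 groups of 5 lungs (14 member probe sets at E18.5 in each genotype) 1 lung lay far from the others for the size of the group. Chance gives about 1 in 20 such groups where groups are independent and values normally spread. These groups share the same arrays, so that rate is no measure for the 3. All 3 were in E18.5 (+/+) lungs. For Hbb-y 103535_at array I gave a signal of 119.4, with the next lung at 47.7 and the lowest at 32.5. For Epb42 161151_at the same array gave 55.4, with the next lung at 16 and the lowest at 8.8. Array I also held the high signals of unspiked controls (35.3), and it was the highest array of its group for 8 of the 14 members, as it was for 48.3% of all probe sets. For Alas2 array L gave 2696.8, with the next lung at 780.2 and the lowest at 259.8. The cause of these values was not tested.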

How the results depend on the processing

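Of 29 member fold changes, 21 kept their sign under every alternative run. Calls over time were gained in (-/-) lungs by Hbb-y 103535_at (1 of 19 alternatives), Hbb-bh1 (2 of 18), Hba-x (3 of 19) and Ank1 100440_f_at (6 of 20), and in (+/+) lungs by Hbb-bh1 (2 of 19) and Alas2 (3 of 20). Members called between genotypes, and for the difference of genotype effects, stayed at 0 in all of them. Term against E18.5 in (-/-) lungs called 2 members, against 6 with array quality weights, 1 by the methods' t-test after Benjamini-Hochberg, 4 at that test's own threshold, and 2 to 3 with 1 array left out. In (+/+) lungs the 2 became 0 with the Xist covariate, 4 with array quality weights, and 1 by the methods' t-test at either threshold, with no filter, with the stricter filter, where fewer probe sets were tested, or with quantile normalization, and 1 to 2 with 1 array left out.

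The log2 difference of Slc4a1 between ages turned to 0.018 in (-/-) lungs with array quality weights, and to 0.25 with the GAPDH ratio, 0.41 with Xist, 0.014 with median centering and 0.0034 with quantile normalization in (+/+) lungs, where Alas2 turned to 0.00042 with Xist. With 1 array left out, the term minus E18.5 difference of Slc4a1 was -0.39 to 0.17 in (-/-), turning without G, and -0.52 to 0.11 in (+/+) lungs, turning without J (0.0077), L (0.0049), N (0.033) or O (0.11). That of Ank1 100440_f_at in (+/+) lungs was -0.059 to 0.80. The genotype difference at term was -0.15 to 0.90 for Alas2, turning without O, and -0.093 to 0.85 for Ank1 100440_f_at, turning without F or P (-0.012). At E18.5 it was -0.37 to 0.0083 for Hba-x, turning without I, and -0.17 to 0.063 for Ank1 100440_f_at, turning without I or A (0.0013).

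Exact tests gave 2 members in place of 4 in (-/-) lungs over time with median centering, and 0 to 2 in place of 1 between genotypes at E18.5 with 1 array left out. Relative to adult globin, 4 members in place of 8 passed in (-/-) lungs with quantile normalization or a pseudocount of 1, 3 and 8 in place of 0 in (+/+) lungs with quantile normalization and a pseudocount of 64, and between genotypes at E18.5 1 in place of 0 with quantile normalization and 0 to 2 with 1 array left out. Relative to Slc4a1 and Alas2, 1 globin in place of 0 passed over time in (-/-) lungs with quantile normalization. Of the red cell lists 3 genes were called over time in each genotype, 1 in each with quantile normalization, 5 in (-/-) lungs with all probe sets of each gene and 0 in (+/+) lungs with no filter. Of the 8 most alike probe sets, 5 remained with quantile normalization or a pseudocount of 1, and 2 to 7 with 1 array left out. The cause of these changes was not tested. Exact tests with 1 array left out were not run over time or at term, since so few lungs cannot give p under 0.05.

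Over all probe sets 1655 were called over time in (-/-) lungs, 897 to 2252 across alternatives, and 1140 in (+/+) lungs, 183 (Xist) to 1939, with 334 without N and 583 without O. Median centering moved the median of all log2 differences to 0.043 from -0.063 and to 0.098 from -0.044, and the calls to 1033 higher and 517 lower (852 and 803 as deposited) and 682 and 229 (649 and 491). Between genotypes at E18.5 2 were called, 0 to 3 across alternatives. No paired analysis was possible because the array letters are not shared between groups.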
